A study of Mus musculus with 4 samples.

Results

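The neighbourhood of Crispld2 and Gse1 on mouse chromosome 8 carried 64 listed H3K27ac HiChIP contacts in VIP interneurons and 5 in SST interneurons of the adult cortex. The locus is the 1.25 Mb from 121.95 to 123.2 Mb of the mm9 build, and its members are all interactions with both anchors inside it: 69 of the 15011 interactions in both lists together. It was chosen by the difference between the VIP and SST counts in these same lists, so those counts are a description and were not tested. The rule that set the locus places Crispld2 near 122.5 Mb and Gse1 between 122.75 and 123.1 Mb; an mm9 annotation was not used here to check these places.

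The VIP group was adult cortex of Vip-cre; Sun1 mice and the SST group adult cortex of Sst-cre; Sun1 mice, both on a C57BL/6 background. In both, the Cre driver decides which cells carry the Sun1 tag by which nuclei are captured (INTACT), so each list describes the cells that driver marks. The labels name 2 samples per cell type, and 1 interaction list per cell type, attached to replicate 1, was analysed here. There is therefore no spread between animals, no p-value, and no read depth behind any interaction. Absence from a list means that a contact was not called, and not that it did not exist. The lists hold no expression by which the labelled cell types could be checked.

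VIP and SST cells are separate classes of inhibitory cortical neuron: VIP cells mostly inhibit other interneurons, while SST cells mostly inhibit the dendrites of pyramidal cells. H3K27ac, an acetylated histone tail, marks promoters and enhancers in use, and HiChIP against it lists pairs of segments, called anchors, that were ligated together. The lists do not show whether both anchors of a pair carried the mark. Crispld2 encodes a secreted cysteine-rich protein with LCCL domains, known for its part in lung development. Gse1 encodes a nuclear coiled-coil protein which, in human cells, is found with histone deacetylase and CoREST complexes. In RefSeq's GRCm38.p6 gene order, Zdhhc7 (a palmitoyltransferase), 6430548M08Rik and Cibar2 (a BAR-domain protein) are the 3 protein-coding genes between them. Usp10, a deubiquitinase, is the next protein-coding gene before Crispld2, and Gins2, a subunit of a DNA replication complex, is the next after Gse1. These names give gene order only; no anchor was assigned to them.

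The promoters of both genes are shown because the assay cuts chromatin with MboI, whose recognition sequence GATC (the same on both strands) limits where a contact can be cut and ligated. They are the 250 bases before a RefSeq start, on the + strand of GRCm38.p6, at chr8:119992188-119992437 for Crispld2 and chr8:120488616-120488865 for the first of the 3 Gse1 starts in the RefSeq promoter table. These positions are in another build than the contacts and cannot be set beside them. Capitals mark GATC.
Crispld2: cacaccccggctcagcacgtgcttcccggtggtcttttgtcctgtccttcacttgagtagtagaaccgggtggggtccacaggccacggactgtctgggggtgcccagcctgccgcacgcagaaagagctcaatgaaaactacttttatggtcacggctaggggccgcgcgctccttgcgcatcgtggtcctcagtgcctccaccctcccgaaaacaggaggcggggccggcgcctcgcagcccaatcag
Gse1: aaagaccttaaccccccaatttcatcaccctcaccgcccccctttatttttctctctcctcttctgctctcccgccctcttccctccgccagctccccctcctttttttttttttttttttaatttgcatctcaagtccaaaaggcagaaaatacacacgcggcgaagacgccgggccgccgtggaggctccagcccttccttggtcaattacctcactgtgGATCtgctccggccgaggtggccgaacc
The Crispld2 stretch holds no GATC and 18 CG dinucleotides, and the Gse1 stretch holds 1 GATC, at base 223, and 13 CG dinucleotides. The other Gse1 starts hold 0 and 1 GATC and 15 and 32 CG dinucleotides. Among all 32851 entries of the table, 41.9% hold a GATC in this stretch and the median is 6 CG dinucleotides.

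In the VIP list the 64 interactions (exact 95% Poisson interval 49.3 to 81.7) were 9.51 per 1000 of its 6733 interactions, and in the SST list the 5 interactions (1.62 to 11.7) were 0.604 per 1000 of its 8278. The ratio per 1000 was 15.7, with a counting interval of 6.40 to 50.1 that takes interactions as independent and does not allow for the choice of the locus. Windows of the same length, moved along the genome in steps of 250 kb, give the background. Of 929 windows with 20 or more interactions, 27.7% had VIP at least 2-fold above SST per 1000 and 14.1% at least 5-fold. A large excess of VIP was thus common among such windows. A VIP minus SST difference as large as the 8.90 per 1000 of the locus was found in 4 of them. These lay on chromosomes 12 and 19, and those on chromosome 19 overlap one another, each with 61 VIP and 0 SST interactions. In the other direction, 6 windows differed by at least 8.90 per 1000. These lay on chr9 and chr17, and those on the same chromosome overlap one another. Neither count is therefore a number of separate places. The locus itself does not lie on the grid of windows, so these ranks depend on placement. The grid window that starts at 122000001 on chromosome 8 had 9.21 VIP and 0.604 SST interactions per 1000.

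The difference depends on how finely the chromatin was divided into anchors. The VIP interactions joined 28 anchors, of which 18 lay within 5 kb of the next and formed 5 runs; the longest run had 8 anchors, from 122896933 to 123105684. When anchors within 5 kb were merged in both lists, the locus held 18 VIP interactions between 15 anchors and 5 SST interactions between 6 anchors. The ratio per 1000 of the merged lists was then 4.40 (1.58 to 15.2).

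**Figure D1:**
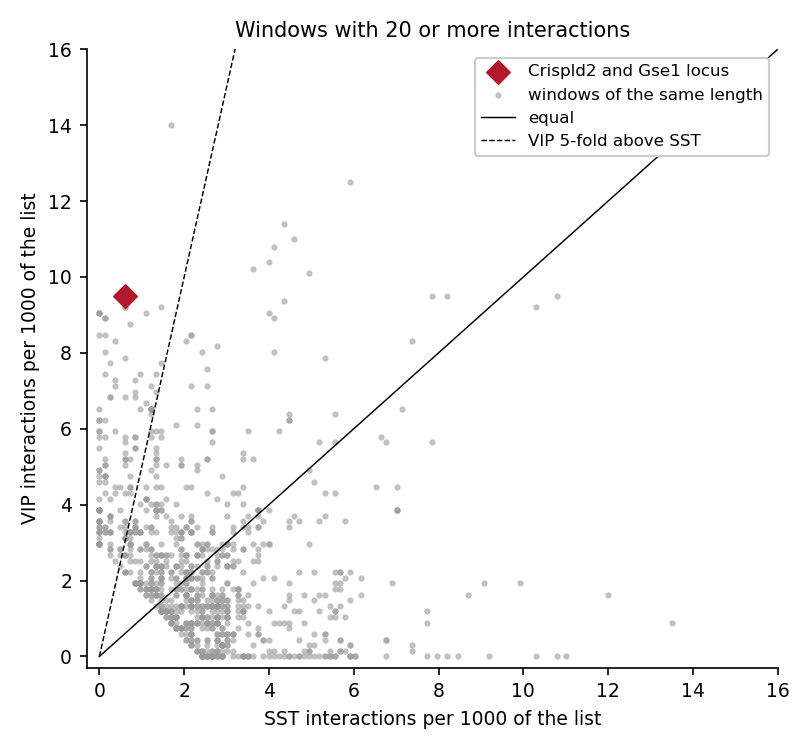
VIP interactions per 1000 (vertical axis) against SST interactions per 1000 (horizontal axis) for the Crispld2 and Gse1 locus (diamond) and for windows of the same length with 20 or more interactions (grey), some of which overlap it or one another. The locus lies at 9.51 VIP and 0.604 SST, above the dashed line of a 5-fold excess, as do 14.1% of the windows.

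The VIP contacts formed a closed network. All 28 VIP anchors were connected through each other, and no VIP or SST interaction left the window. How often other windows are closed in this way was not counted. The VIP anchors ran from 121968639 to 123116876, a span of 1.15 Mb. The nearest other VIP interaction ended 2046 kb to the west, and the next to the east began 990.4 kb away. In the SST list the contacts ran from 122623223 to 123082566, or 459 kb, with the next SST interactions 752 kb to the west and 1029 kb to the east. The closest SST interaction outside the window ended at 121871253, 78.7 kb from its western edge. VIP anchors covered 421 kb, or 33.7% of the window, and SST anchors 81.4 kb, or 6.51%. Their median width was 10.6 kb in VIP and 11.1 kb in SST.

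**Figure D2:**
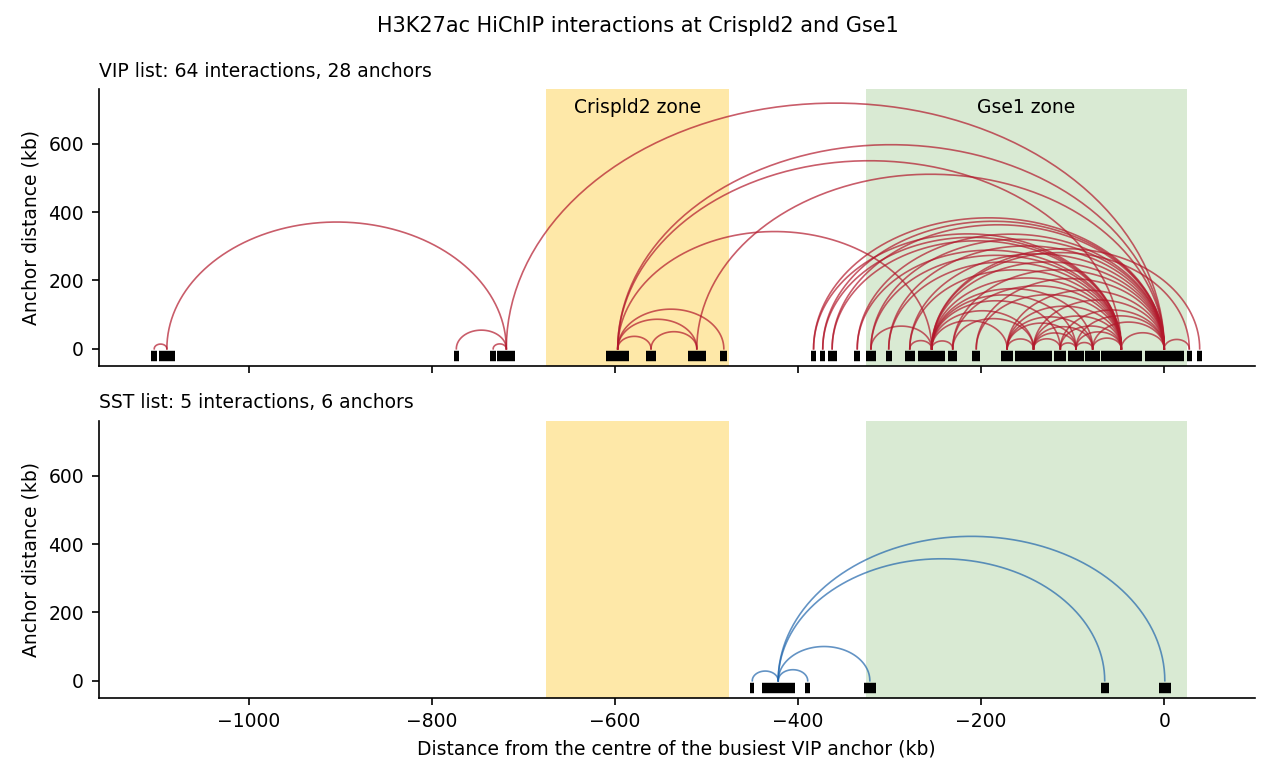
Every interaction of the locus as an arc whose height is the distance between its anchor midpoints (kb), with anchors as black bars, VIP above and SST below; the horizontal axis is distance from the centre of the busiest VIP anchor (kb). The 64 VIP arcs gather at the Gse1 zone (green), with 8 touching the Crispld2 zone (yellow), and the 5 SST arcs start at a single anchor between the zones.

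Most VIP contacts lay at Gse1. Anchors were placed by their midpoints into a Crispld2 zone (122.4 to 122.6 Mb), a Gse1 zone (122.75 to 123.1 Mb), and the stretches west of, between and east of them. Of the 64 VIP interactions, 40 joined 2 anchors of the Gse1 zone and 56 touched it; in the SST list 0 of 5 lay within it and 3 touched it. The Gse1 zone held 13 VIP anchors, which covered 75.6% of the length of the zone, and 3 SST anchors, which covered 10.1%. The interval of a gene this long can hold several of its starts as well as intronic segments, and these were not told apart here.

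Contacts of the Crispld2 zone were listed in VIP, and 0 of the 5 SST interactions and 0 of the 6 SST anchors lay in that zone. Its 4 VIP anchors had 4 interactions with each other, of 36.4 to 116 kb, and 4 with the Gse1 zone, of 343 to 597 kb. The anchor at 122466013 to 122490598 took part in 6 of these 8. It was joined to the other 3 anchors of its zone and to 3 anchors of the Gse1 zone, at distances of 343, 550.2 and 597 kb. The anchor at 122555233 to 122574215 supplied the remaining link to Gse1, 511 kb long. The Crispld2 zone thus had as many listed links to the Gse1 zone as within itself. The Gse1 zone held 13 VIP anchors, however, so far more pairs were possible between the zones than within the Crispld2 zone.

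West of Crispld2, 5 VIP anchors had 4 interactions among themselves and 1 with the Gse1 zone. That 1 interaction, from 122346650 to 122366537 and from 123054220 to 123096528, was 719 kb long and the longest of the locus. It was also the only VIP link across the 99.5 kb between the western anchors and the Crispld2 zone, so the western group rests on it alone for its place in the network. No SST interaction inside the window lay there. Between the zones, each of the 4 VIP anchors had exactly 2 interactions, both with the Gse1 zone, and together they gave 8 links of 288 to 383 kb. Their most western member, 122689865 to 122694707, gave the fifth longest VIP link.

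**Figure D3:**
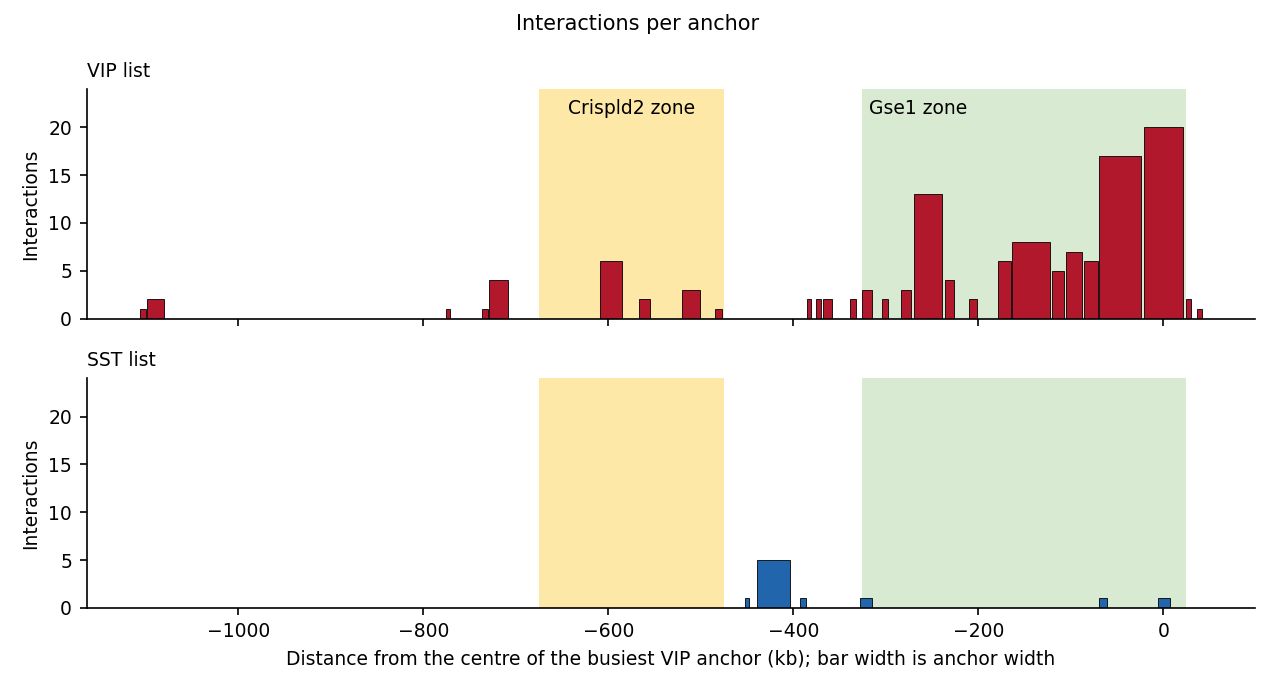
Number of interactions of each anchor (vertical axis), drawn at its position relative to the centre of the busiest VIP anchor (kb) and as wide as the anchor, VIP above and SST below. In VIP the tallest bars, at 20, 17 and 13 interactions, are in the Gse1 zone, and in SST the tallest, at 5, lies west of it.

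A few wide anchors carried most of the VIP contacts. The busiest, at 123054220 to 123096528, was 42.3 kb wide and took part in 20 interactions; 15 of the 4850 anchors in the VIP list, itself included, had 20 or more. Its neighbour at 123005789 to 123051134, across a gap of 3086 bp, was 45.3 kb wide and took part in 17. The third, at 122806364 to 122836283, was 29.9 kb wide and took part in 13. These 3 were all linked to each other, and 47 of the 64 interactions (73.4%) touched at least 1 of them. Anchors with 10 or more interactions made up 3 of 28 at the locus and 4.27% of the VIP list. These counts depend on how the chromatin was divided into anchors. The busiest anchor and its neighbour both lie in the run of 8 anchors from 122896933 to 123105684. With anchors within 5 kb merged, that run had 9 interactions, the highest number at the locus.

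The other anchors with 5 or more interactions formed a run between the third anchor and the first pair, except the Crispld2 anchor with 6 described above. From west to east the run had 6 interactions at 122896933 to 122910626, 8 at 122912091 to 122953105 and 5 at 122955280 to 122968403. It went on with 7 at 122970013 to 122987895 and 6 at 122989281 to 123005144. No SST anchor overlapped these 5. The 9 anchors with 5 or more interactions were 24.6 kb wide at the median and the 19 others 7.91 kb; in the whole VIP list the medians were 25.6 and 11.0 kb. Busy anchors were wide in the list as a whole, and the part of width in the counts was not tested.

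The links followed a spoke pattern. All 15 anchors of the between and Gse1 zones that lie west of the paired anchors were linked to both of the pair, including the third busiest. At 6 anchors these were the only links. The Crispld2 anchor at 122466013 was linked to both as well, which makes 16 in all. The busiest anchor had 3 more partners that its neighbour lacked, in the western stretch, in the Crispld2 zone and east of Gse1. Its neighbour had no partner, apart from the busiest itself, that the busiest lacked. In the Gse1 zone 40 of 78 pairs of VIP anchors were linked (51.3%). Pairs that included 1 of the 3 busiest anchors were all linked at midpoint distances above 50 kb, 26 of 26. Pairs without them were linked in 9 of 45 cases, and in 0 of 21 above 100 kb, where the exact 95% upper limit is 16.1%. The 3 anchors were picked for their number of links, so this describes where the links lay and is no test. The paired anchors become 1 when anchors within 5 kb are merged, so being linked to both depends on that division.

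**Figure D4:**
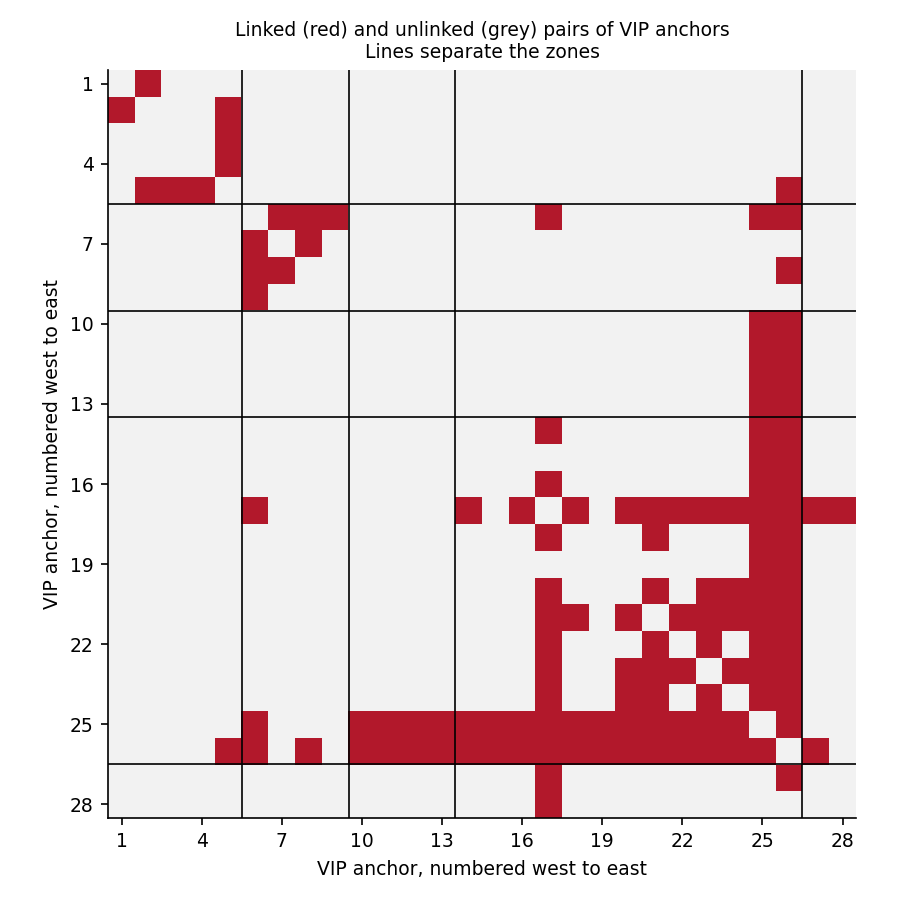
Pairs of the 28 VIP anchors, numbered west to east on both axes, with linked pairs in red and lines between the zones. The rows of anchors 25 and 26 (17 and 20 interactions) and of anchor 17 (13 interactions) hold the most red cells, though none is full. Away from them the red cells keep close to the diagonal.

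This arrangement was not particular to the locus. Among 18 other windows of the same length that did not overlap each other and held 20 or more VIP anchors, the busiest 2 anchors touched a median of 56.9% of the interactions (40.7 to 96.2%), and at the locus they touched 56.2%. The VIP anchors of the locus formed 1 connected network, and the 18 windows had a median of 1 (1 to 2). The share of possible anchor pairs that were linked was 16.9% at the locus, and 11 of the 18 windows were at or above it. Of the pairs of links that met at an anchor, 38.5% were closed to a triangle at the locus, and the windows had a median of 35.5%. The locus was high in size: 2 of the 18 windows had as many VIP interactions, and 4 had an anchor with as many as 20. It was chosen for its excess of VIP interactions in these lists, so its size is no separate finding.

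The median contact length at the locus was near that of the VIP list, and few contacts were very long. The median distance was 142 kb (order-statistic 95% interval 88.3 to 231) for the 64 VIP interactions of the locus and 167 kb in the whole VIP list. That interval takes interactions as independent, though 47 of the 64 touched the 3 busiest anchors, and it is no test. Without the busiest 2 anchors, a setting chosen after seeing the data, the median was 70.8 kb. Distances above 400 kb made up 4 of 64 at the locus (6.25%) and 21.1% of the VIP list. Length differed with the anchor used. The 17 interactions that touched none of the 3 busiest anchors had a median of 50.0 kb, and only 1 of them exceeded 200 kb. The 20 interactions of the busiest anchor had a median of 266 kb, and the 17 of its neighbour 207 kb. The 13 interactions of the third anchor had a median of 158 kb. The shortest VIP link, of 13.8 kb, joined 121968639 to 121975275 with 121976945 to 121994524, and the next 4 were 14.3, 17.1, 18.3 and 23.0 kb long. The 5 SST interactions were 28.3, 32.2, 100.1, 357 and 422 kb long.

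**Figure D5:**
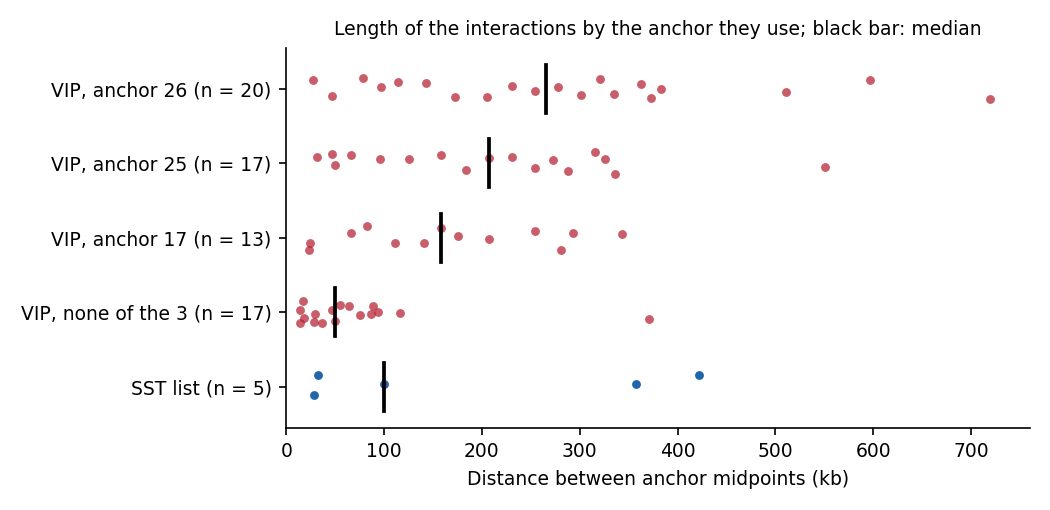
Distance between anchor midpoints (kb, horizontal axis) of the interactions that use the busiest VIP anchors (anchor 26, its neighbour 25 and the third, 17), of VIP interactions that use none of them, and of the SST interactions; points are spread vertically for sight only, links between the named anchors appear in both rows, and black bars are medians. The medians are 266, 207 and 158 kb for the 3 anchors, 50.0 kb without them and 100.1 kb in SST.

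In SST a different anchor was at the centre. All 5 SST interactions started from 122635715 to 122671545, a 35.8 kb anchor between the zones that no VIP anchor overlapped. The nearest VIP anchor lay 18.3 kb away. It stands in the 91.7 kb between the last VIP anchor of the Crispld2 zone and the first east of it, a gap that 5 VIP interactions passed over. Its partners were a short segment to the west at 122623223 to 122627431, another to the east at 122682944 to 122688791, and 3 anchors of the Gse1 zone. Those 3 were at 122747117 to 122760401, 123005789 to 123014945 and 123069484 to 123082566.

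These 3 Gse1 segments were the ones that the lists had in common. Each overlapped a VIP anchor: the first at 122749574 to 122760401, with 3 VIP interactions, and the others the VIP anchors with 17 and 20. Overlap covered 100%, 20.2% and 30.9% of the VIP anchors and 81.5%, 100% and 100% of the SST anchors. The first pair ends at the same base in both lists, 122760401, and the second starts at the same base, 123005789. In VIP these 3 segments were linked to each other in all 3 combinations. In SST each was linked to the central anchor at 122635715 and to no other.

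No contact of the locus was therefore listed in both cell types: 0 of 64 VIP interactions had a counterpart with both anchors overlapping, against 25.8% of the whole VIP list. A count of 0 of 64 allows a share of up to 4.69% by the limit of 3 counts, and the exact 95% upper limit is 5.60%. Both limits take interactions as independent, which they are not here. All 5 SST interactions used the anchor at 122635715, which no VIP anchor overlapped. No VIP interaction could therefore have a counterpart, and the 0 rests on that 1 anchor. Of the 28 VIP anchors, 3 overlapped an SST anchor (10.7%, exact 95% interval 2.27 to 28.2%), against 43.5% of the VIP list. From the SST side, 3 of 6 anchors overlapped a VIP anchor (50.0%, 11.8 to 88.2%), against 36.9% of the SST list. Of the 64 VIP interactions, 27 joined anchors that were both missing from SST (42.2%), 34 had 1 anchor there (53.1%) and 3 had both (4.69%). Among all 4993 VIP interactions without a counterpart the shares were 45.8%, 42.5% and 11.8%. A low share of common contacts goes with the choice of the locus for its excess of VIP and is no separate finding. The same holds for the low share of VIP anchors that overlap an SST anchor, since few SST contacts leave few SST anchors. The 34 interactions with 1 anchor in the SST list all meet at the 3 common segments and are not independent of each other.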

How the data were processed

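H3K27ac HiChIP interactions of VIP and SST nuclei from adult mouse cortex were analysed from 1 list per cell type. Each deposited list has 6 columns with the chromosome, start and end of paired anchors, and no header, count or score. The authors' tools are known in part: HiC-Pro and mm9 are named in the submitters' processing notes. Not given in the sources used here are the caller of interactions, its cutoff, how anchors were made and any pooling of replicates. Read depth is unknown, so list length and depth cannot be told apart. Coordinates are printed as listed.

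The locus was taken from the rule above, and its members, zones and lists of items were chosen with earlier results of these data known. Named are Crispld2 and Gse1, every anchor with 5 or more interactions, every SST interaction, and the 5 longest and shortest VIP interactions. For some of these only lengths are given. Distances are between anchor midpoints. A counterpart needed an overlap of 1 bp at both anchors. The Crispld2 zone is 100 kb on each side of the position in the rule. Shares and counts have exact binomial (Clopper-Pearson) or Poisson intervals, at 95%, which cover counting error only. No p-value was computed. Alternatives changed the window, the overlap, the distance limits, anchor merging, scaling and window steps. The matching code was tested on simulated data (6733 against 8278 interactions) and recovered 2000 of 2000 planted counterparts. It found 0 in a list shifted so that none should match. The simulated interactions were isolated, with anchors of fixed width, so dense or shared anchors such as those of the locus were not tried. Promoter sequences and gene order come from RefSeq tables of GRCm38.p6. Software was scipy 1.17.1, pandas 2.3.3 and numpy 2.4.6 under Python 3.11.15, with figures by matplotlib 3.10.9.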

Additional observations from a re-analysis of the deposited data

How the results depend on the processing

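Of 37 alternative values, 25 stayed within 1.5 times the count or within the interval and 12 moved. Merging anchors within 5 kb left 18 VIP interactions, against 5 in SST, since 24 of the 64 VIP links then fell inside a merged anchor and the other 40 were counted once per pair of merged anchors. Interactions of up to 200 kb were 38 in VIP and 3 in SST, and 27.3% of such VIP anchor pairs were linked; the limit removes longer links by construction. Widening the window by 250 kb gave 9 SST interactions and left VIP at 64. Without the busiest anchor of each list 44 VIP and 0 SST interactions remained. Without the busiest 2, a setting chosen after seeing the data, 28 VIP interactions with a median of 70.8 kb remained. Of the 28 VIP anchors, 0 were identical to an SST anchor and 6 lay within 10 kb of one. Windows stepped by their own length included 0 of 191 with a difference as large as the locus, and placing interactions by the midpoint between anchors gave 12 of 1232. For the other moves the cause was not tested. The direction of the difference held in each alternative that gave both counts. The 0 VIP interactions with an SST counterpart stayed 0 within 10 kb and with anchors within 5 kb merged. Identical anchors and 50% overlap are stricter than the main rule, so the 0 could not change under them. The VIP to SST ratio was 12.8 unscaled and 13.9 scaled to chromosome 8. With anchors within 5 kb merged it was 4.40, below the main interval of 6.40 to 50.1. That ratio is not among the 37 values. No paired analysis was possible because only 1 list stands for each cell type, and no replicate could be left out.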
